A study of Homo sapiens with 36 samples.

Results

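High and low doses of the compound labelled Ota were compared after 72 h in HK-2 cells, with 3 arrays at each dose. These 6 arrays are 6 of the 36 in the series and were taken by their titles, which give compound, dose, time and replicate. The high dose cells received Ota at the dosage labelled high for 72 h, and the low dose cells the same compound at the dosage labelled low for 72 h. The 3 control arrays of that time, from cells given vehicle for 72 h, and the 3 high and 3 low dose arrays of 24 h stand beside them where the shape of the dose response or its time is described. The labels name the compound only as Ota and give no concentrations or vehicle. HK-2 is an immortalised line of human renal proximal tubule epithelium, so every group is a model of a single established line in culture and holds no other kidney cell. All cells had been plated 24 h earlier and were dosed close to confluence, in a medium whose listed supplements were epidermal growth factor, hydrocortisone, insulin, transferrin and selenite, with no serum among them. Each array measured total RNA of 1 culture as biotinylated cRNA, and the labels call the 3 cultures of a group biological replicates without saying more about their origin.

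Proximal tubule cells reabsorb solutes from the filtrate through apical and basolateral transporters and take up many drugs and toxins by the same route, which makes them a frequent site of kidney injury. Cells under stress can change several programmes that are read here as gene lists. The transcription factor ATF4 turns on genes of amino acid supply when translation is limited, and the unfolded protein response raises chaperones of the endoplasmic reticulum (ER). Heat shock factors raise cytosolic chaperones, p53 raises cell cycle inhibitors and repair genes, and metallothioneins bind zinc and copper. Replication-dependent histone genes, which lie in clusters and are normally active in S phase, make the core histones. Their normal messages end in a stem-loop and carry no poly(A) tail.

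The values are log2 expression per probe set, 1 probe set per gene, and a gene was tested where its value exceeded 4 on at least 3 of the 18 Ota arrays, which held for 11029 genes. Values at or under 4 lie near background and have no dependable order. The high dose arrays had a lower median over the tested genes (7.95 ± 0.05, SD, n = 3) than the low dose arrays (8.29 ± 0.04) or the controls (8.28 ± 0.02), and 10265 to 10321 of their genes exceeded 4 against 10499 to 10554 at the low dose. Replicates correlated at r between 0.973 and 0.987 at the high dose and between 0.991 and 0.993 at the low dose (Pearson, over genes). The 3' minus 5' difference of the ACTB control sets, a sign of RNA integrity, was 1.88 ± 0.37 at the high dose, 1.38 ± 0.06 at the low dose and 1.29 ± 0.15 in the controls, and its part in the results was not tested. The median high minus low difference of all tested genes was -0.17 in the deposited values, 0.18 after each array was shifted to 1 median and -0.05 after quantile normalization. List medians that change sign with shifted arrays are given below with both values. In bulk RNA, fewer cells of a kind and less RNA per cell cannot be told apart.

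At 72 h high and low dose differed in the majority of the tested genes. Of 11029 tested genes 6437 (58.4%) differed between high and low dose at an adjusted p under 0.05 (limma, Benjamini-Hochberg, two-sided), 4043 of them lower at the high dose (36.7% of tested genes) and 2394 higher (21.7%). At least 2-fold lower were 2488 (22.6%) and at least 2-fold higher 882 (8.0%), which became 1743 and 1730 with shifted arrays. The 3 high dose arrays lay wholly below the 3 low dose arrays for 4526 genes and wholly above them for 3090. Higher genes made up 37.2% of the calls in the deposited values, 44.7% with quantile normalization and 59.0% with shifted arrays, so the surplus of falls depends on the scaling. The steps on either side were unequal. The low dose differed from the control in 1883 genes (17.1%; 1080 higher, 803 lower), and the high dose from the same control arrays in 6989 (63.4%; 2903 higher, 4086 lower). With shifted arrays the high dose had 4370 genes above and 3083 below the control. Without low dose replicate 1 the count of low dose against control was 1184. Over the 9 arrays of 72 h the first principal component held 79.5% of the variance and placed the controls at -55.0 to -56.1, the low dose at -29.3 to -32.9 and the high dose at 83.2 to 92.0. The second component held 9.47% and separated the low dose arrays, at 22.1 to 31.4, from the controls, at -20.2 to -26.4.

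Several genes close to silent at the low dose reached clear levels at the high dose. AOC3, a membrane copper amine oxidase, read 3.11, 3.13 and 3.15 on the low dose arrays and 9.70, 9.47 and 9.35 on the high dose arrays, so that it rose at least 45.4-fold (limma adjusted p = 8.1e-09). Its control arrays, at 3.16, 3.15 and 3.19, lay where the low dose did. MSH4, a meiotic mismatch repair homologue, rose at least 17.6-fold, from 2.41, 2.41 and 2.40 to 8.32, 8.23 and 7.85. AVIL, which encodes the actin-binding protein advillin, rose by 5.31 ± 0.27 on the log2 scale, from 3.89, 4.17 and 4.17 to 9.36, 9.61 and 9.20. Here and below, the difference of a gene is given ± its limma standard error, not the SD of its arrays. This error rests on 1 estimate of the spread shared over the 18 Ota arrays. PLAUR, the receptor of urokinase, rose at each step: its control arrays read 4.56, 4.72 and 4.95, its low dose arrays 5.26, 5.36 and 5.76 and its high dose arrays 10.61, 10.75 and 10.53. The high and low dose arrays of AOC3, MSH4, AVIL and PLAUR did not overlap, which was a condition for entry among the 15 greatest rises and falls. The other rises among the 15 greatest, ranked with values under 4 set to 4, were GAL, the neuropeptide galanin (5.82 ± 0.41, 5.07 with values under 4 set to 4), MMP1, interstitial collagenase (4.64 ± 0.63), and ELL2, an elongation factor of RNA polymerase II (3.84 ± 0.41). SPMIP1 (at least 23.2-fold), LSMEM1 (at least 21.4-fold), the zinc finger gene ZNF513 (at least 16.1-fold) and LIMCH1 (at least 11.9-fold) belonged to them too. BASP1, a membrane-bound signalling protein, rose by 4.24 ± 0.26 and CELF2, an RNA-binding splicing regulator, by 3.71 ± 0.33. IL6, the cytokine interleukin-6, completed them with 3.59 ± 0.77, but its high dose arrays were far apart, at 6.44, 6.63 and 10.75, against 4.004, 3.94 and 5.11 at the low dose. The last of the 15 was the histone gene H2BC4, described below.

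The greatest falls began from well expressed genes. Over all tested genes the 0.01 quantile of the high minus low difference was -3.49 in the deposited values, and the 0.99 quantile 2.40. TMEM37, a calcium channel subunit of the gamma family, fell from 10.66, 10.14 and 10.52 at the low dose to 4.52, 3.05 and 5.12 at the high dose, by 6.21 ± 0.45 (adjusted p = 2.6e-08). RNASEH2A, the catalytic subunit of the ribonuclease that removes RNA from DNA, fell from 10.05, 9.99 and 10.13 to 3.65, 3.58 and 5.26. High and low dose did not overlap in either gene, as the choice required. The controls lay near the low dose, at 10.30, 10.55 and 10.09 for TMEM37 and 9.45, 9.74 and 9.57 for RNASEH2A. METTL23, a protein methyltransferase, fell in steps, from 10.84, 10.87 and 10.86 in the controls to 8.87, 8.65 and 8.53 at the low dose and 3.17, 3.03 and 2.85 at the high dose, which is at least 25.7-fold below the low dose and at least 116-fold below the control. SYNE2, a giant protein linking the nucleus to the cytoskeleton, fell by 5.79 ± 0.46 and BLNK, a signalling adaptor, by 5.57 ± 0.29. GPR160, an orphan receptor, fell by 5.86 ± 0.33, CYS1, the cilium protein cystin, by 4.68 ± 0.42 and SPX, a peptide hormone precursor, by 4.86 ± 0.24. Mitochondrial genes among the falls were GCAT, which acts in threonine breakdown (-5.32 ± 0.22), SLC25A11, the oxoglutarate carrier (-5.14 ± 0.36), and ACOT13, a thioesterase (-4.79 ± 0.21). SLC17A3, a urate and organic anion transporter of the proximal tubule, fell by 5.49 ± 0.63, from 9.10, 8.18 and 9.65 to 2.73, 2.74 and 4.98. WDR13 (-4.92 ± 0.31) and KLHDC2, a substrate receptor of a ubiquitin ligase (-4.55 ± 0.26), complete the 15 greatest falls in the same ranking together with the keratin gene KRT20, described with the injury genes. With values under 4 set to 4, TMEM37 fell by 5.90, RNASEH2A by 5.64, SYNE2 by 5.59, GPR160 by 5.25, BLNK by 5.21, GCAT by 5.19, SLC25A11 by 4.79, WDR13 by 4.77 and SLC17A3 by 4.65.

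**Figure D1:**
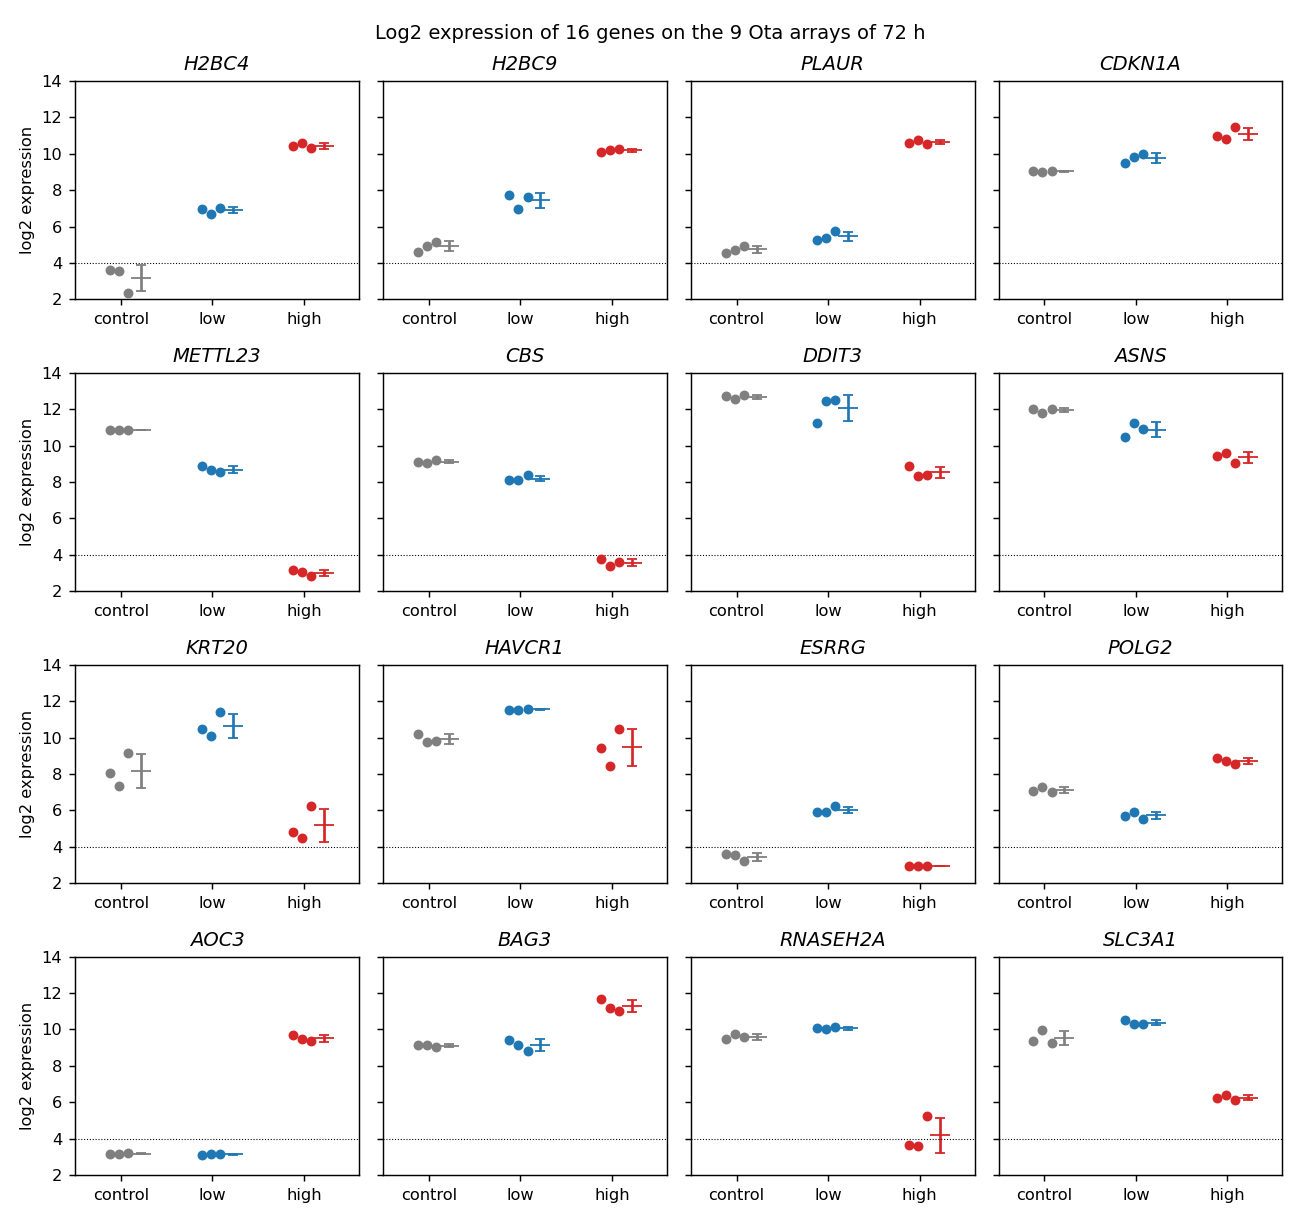
Log2 expression (y axis) of 16 named genes on the 9 Ota arrays of 72 h, by dose (x axis). Points are arrays, the short horizontal mark and bar are the mean ± SD of 3 arrays, and the dotted line is log2 4; H2BC4 climbs from 2.32 to 3.59 in the controls to 10.30 to 10.59 at the high dose, and KRT20 and HAVCR1 are highest at the low dose.

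The replication-dependent histones rose together. Genes named for a list here and below are its 3 called members with the greatest difference after values under 4 are set to 4. Some others were added as examples after their values were seen. List counts between the doses stand beside 36.7% lower and 21.7% higher over all tested genes. List counts of low dose against control stand beside 1080 higher and 803 lower of 11029. Of 57 genes on the list 38 had a probe set and 18 were tested. All 18 rose between low and high dose (median 2.38, against -0.17 over all tested genes). All 18 also stayed higher with quantile normalization and with shifted arrays. When each high or low dose array was left out in turn, 3 of the 18 calls were lost at least once. In 9 of the 18 all low dose arrays lay at or under 4; these passed the filter only through other arrays, so their difference is partly a result of the filter, and with values under 4 set to 4 the median of the 18 was 2.12. H2BC4 read 3.59, 3.56 and 2.32 in the controls, 6.98, 6.70 and 7.01 at the low dose and 10.41, 10.59 and 10.30 at the high dose, without overlap between groups. H2BC9 read 4.62, 4.95 and 5.16, then 7.73, 6.97 and 7.65, then 10.08, 10.23 and 10.27. The high minus low difference was 3.54 ± 0.29 (adjusted p = 8.3e-08) in H2BC4 and 2.74 ± 0.24 (adjusted p = 1.5e-07) in H2BC9, and the low minus control difference 2.54 ± 0.24 in H2BC9. In H2BC4, whose controls all lay under 4, that step was at least 2.89 on the log2 scale (values under 4 set to 4). H4C8 rose at least 9.74-fold and H2AC17 at least 7.83-fold, both being at or under 4 on all low dose arrays. Against the control, 8 of the 18 were higher at the low dose. The linker histone H1-2 rose by at least 2.89 (values under 4 set to 4) in that first step and by 2.35 ± 0.19 in the second, and H2AC6 by 3.01 ± 0.28 and 0.81 ± 0.28. Probe sets of close histone copies can read each other's RNA, and values of single histone genes are uncertain for that reason. The labels do not say whether the labelling started from poly(A) tails.

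RefSeq promoter sequences (GRCh38.p14) were found for all 18 tested histone genes. Here and below, motifs were searched in the 250 bases before the start of each gene. Of the 18 promoters 11 held the octamer ATGCAAAT on either strand, a motif known from H2B promoters, against 1.13% of the promoters of 9133 tested genes. Histone genes often lie head to head and then share such a stretch. The 250 bases before the start of H2BC4 (chr6:26123927-26124176, minus strand) and of H2BC9 (chr6:26251364-26251613, plus strand) are shown because these genes changed at both dose steps; they are written 5′ to 3′ with the octamer, here in its reverse complement, in capitals.
H2BC4: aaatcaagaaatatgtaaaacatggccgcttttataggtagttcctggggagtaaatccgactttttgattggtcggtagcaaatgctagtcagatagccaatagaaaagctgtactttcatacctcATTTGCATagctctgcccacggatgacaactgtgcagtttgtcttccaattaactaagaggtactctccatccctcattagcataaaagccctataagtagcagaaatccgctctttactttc
H2BC9: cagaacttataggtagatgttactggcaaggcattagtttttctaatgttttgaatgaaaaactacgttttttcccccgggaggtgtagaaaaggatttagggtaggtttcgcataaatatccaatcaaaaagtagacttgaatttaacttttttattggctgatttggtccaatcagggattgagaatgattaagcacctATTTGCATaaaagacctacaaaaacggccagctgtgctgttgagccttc
A match is a run of letters, not evidence of a bound factor, and the 7 promoters without it lack only these letters in this window.

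ATF4 targets and amino acid supply genes moved the other way. Of 32 tested genes 22 were lower at the high dose and 1 was higher (median -1.20), and 15 were already below the control at the low dose with 0 above it (median -0.64, against 0.02 over all tested genes). Shifted arrays left 18 lower and 2 higher. CBS, the enzyme that joins homocysteine and serine, fell at least 18.3-fold between the doses, from 8.09, 8.12 and 8.37 to 3.75, 3.38 and 3.58, and its controls lay above both, at 9.12, 9.03 and 9.19. DDIT3, the stress factor CHOP, read 11.25, 12.46 and 12.51 at the low dose and 8.87, 8.35 and 8.38 at the high dose (-3.54 ± 0.46, adjusted p = 8.9e-06). Low dose replicate 1 lay apart from the other low dose arrays in DDIT3, and the groups did not overlap. ASNS, asparagine synthetase, fell by 1.52 ± 0.24 between the doses and by 1.07 ± 0.24 between control and low dose. CHAC1, which degrades glutathione, fell by 3.72 ± 0.44, ATF4 itself by 1.54 ± 0.12, the cystine transporter SLC7A11 by 2.51 ± 0.28 and the lipoprotein receptor VLDLR by 3.55 ± 0.30. The exception was STC2, the secreted stanniocalcin 2, which rose by 1.98 ± 0.38. ATF3, a stress-induced factor, did not pass (-0.68 ± 0.40, adjusted p = 0.153), while the same dose difference at 24 h was 3.99 ± 0.40. The cytosolic aminoacyl-tRNA synthetases, many of which ATF4 induces, had 8 of 17 lower and 1 higher (median -0.29, which turned to 0.06 with shifted arrays), led by AARS1 (-2.49 ± 0.24), SARS1 (-1.47 ± 0.19) and LARS1 (-1.07 ± 0.14). At the low dose 10 of them were below the control.

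ER chaperones were lower at the low dose than in the control. Of 20 tested genes 14 were below the control at the low dose and 0 above it (median -0.93), whereas between the doses 7 were lower and 5 higher (median -0.22, and 0.13 with shifted arrays). SDF2L1, an ER stress-induced partner of BiP, fell at both steps, from 10.76, 10.47 and 11.09 in the controls through 8.44, 9.88 and 9.30 to 6.75, 6.36 and 6.40. HERPUD1, of ER-associated degradation, was lower at the high dose by 1.41 ± 0.22 and XBP1, a transcription factor of the response, by 1.32 ± 0.24. ERP44, which retains client proteins in the early secretory pathway, is not on this list and was named for its dip. It read 11.24, 11.28 and 11.39 in the controls, 10.06, 10.45 and 10.14 at the low dose and 11.23, 11.13 and 11.04 at the high dose. Its low dose arrays lay below both other groups, a shape called in 1 of the 20 tested list genes. PDIA6, a disulfide isomerase, had the same shape (-0.75 ± 0.12 for low minus control and 0.59 ± 0.12 for high minus low).

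Heat shock chaperones, the mitochondrial HSPD1 and HSPE1 among them, were higher at the high dose in 7 of 14 cases and lower in 2 (median 0.69, and 1.04 with shifted arrays). BAG3, a co-chaperone of HSP70, read 9.43, 9.17 and 8.81 at the low dose and 11.66, 11.15 and 11.03 at the high dose (2.15 ± 0.21, adjusted p = 4.6e-07), with the controls at the low dose level (9.16, 9.12 and 9.02). DNAJA1, another HSP70 partner, rose by 1.81 ± 0.26. The small heat shock protein CRYAB went the other way (-2.11 ± 0.19), after a rise of 0.94 ± 0.19 between control and low dose. Proteasome subunits were higher in 16 of 27 cases and lower in 2 (median 0.72), among them the lid subunits PSMD12 (1.68 ± 0.24) and PSMD14 (1.42 ± 0.10). The ubiquitin receptor PSMD4 fell (-1.55 ± 0.20). By symbol, 9 of 13 tested PSMD genes were higher and 1 lower (median 0.72). Of 11 tested PSMB genes, not all of them on this list, 3 were higher and 5 lower (median -0.30, and 0.04 with shifted arrays). At the low dose 3 of the 27 were above and 2 below the control. Ribosome biogenesis factors were higher in 17 of 32 and lower in 3 (median 0.58), with TCOF1, the treacle protein of ribosomal RNA transcription, rising from 6.61, 5.94 and 6.38 to 8.77, 8.60 and 8.72. The nucleolar protein LYAR (2.03 ± 0.17) and the GTPase GNL2 (1.39 ± 0.20) also rose. No member of this list differed between low dose and control (0 of 32 at adjusted p under 0.05; limma, with 3 at unadjusted p under 0.05). The ribosomal proteins themselves were lower in 20 of 48 cases and higher in 1 (median -0.20), 43.8% called against 58.4% of all tested genes. Shifted arrays gave 13 higher and 7 lower (median 0.14), so the direction of this list rests on the scaling. RPL31 (-1.68 ± 0.14), RPL14 (-1.32 ± 0.11) and RPS6 (-0.98 ± 0.14) fell most.

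All 6 tested metallothioneins were lower at the high dose (of 8 listed, 7 with a probe set; median -1.35, and -1.005 with shifted arrays), and 3 were already below the control at the low dose. MT1F read 12.54, 12.39 and 12.37 in the controls, 11.96, 11.86 and 11.69 at the low dose and 9.68, 9.95 and 10.01 at the high dose, and MT1X read 12.65, 12.39 and 12.55, then 12.23, 12.03 and 11.75, then 10.22, 10.70 and 10.75. The steps between low and high dose were -1.96 ± 0.16 (adjusted p = 6.9e-08) in MT1F and -1.44 ± 0.18 (adjusted p = 7.1e-06) in MT1X, and the dose groups did not overlap in either gene. Metallothioneins of nearly equal sequence can share signal in the same way as histones. A promoter was found for 3 of the 6, and all 3 held the core of the metal response element (TGCACNC or TGCGCNC, either strand), as did 33.8% of 9133 promoters. The stretch before the start of MT1X (chr16:56682220-56682469, plus strand) is shown for its 4 matches, in capitals.
MT1X: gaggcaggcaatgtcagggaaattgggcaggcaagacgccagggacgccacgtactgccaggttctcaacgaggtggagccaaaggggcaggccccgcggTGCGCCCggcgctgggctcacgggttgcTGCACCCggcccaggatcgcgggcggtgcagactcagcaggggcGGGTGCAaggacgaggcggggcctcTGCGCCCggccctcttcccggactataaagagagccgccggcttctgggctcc
Antioxidant genes under NRF2 showed no common direction, with 5 of 23 higher and 7 lower (median 0.00, and 0.34 with shifted arrays). NQO1, a quinone reductase, fell by 2.29 ± 0.37, with high dose arrays at 5.66, 7.53 and 5.57 and low dose arrays at 8.58, 8.49 and 8.56; the glutathione transferase GSTM3 fell by 1.48 ± 0.24. HMOX1, heme oxygenase, did not pass (0.50 ± 0.38, adjusted p = 0.272). Of 6 tested genes of the aryl hydrocarbon receptor pathway, the receptor and its partner ARNT included, 1 was higher and 2 lower (median -0.01, and 0.34 with shifted arrays). They were ALDH1A3, at or under 4 on all low dose arrays (0.30 with values under 4 set to 4), ARNT (-1.22 ± 0.36) and the cytochrome CYP1B1 (-0.44 ± 0.18). ALDH1A3 lost its call without high dose replicate 2 or low dose replicate 3 (adjusted p = 0.0653 and 0.0737) and with values under 4 set to 4 (0.266), and CYP1B1 without high dose replicate 1 or 3 or low dose replicate 1 or 3 (adjusted p = 0.0862, 0.192, 0.111 and 0.140). With quantile normalization and with shifted arrays both lower calls were lost, ARNT at adjusted p = 0.111 and 0.0578 and CYP1B1 at 0.228 and 0.634.

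DNA replication genes were raised at the low dose. Of 39 tested genes 27 were above the control there and 1 below (median 0.96), and 6 were called with a peak at the low dose. Between low and high dose 17 were lower and 4 higher (median -0.23, but 0.12 with shifted arrays), 53.8% called against 58.4% of all tested genes. RRM2, a ribonucleotide reductase subunit, rose by 1.47 ± 0.18 and then fell by 1.34 ± 0.18, LIG1, the replicative DNA ligase, rose by 1.39 ± 0.16 and then fell by 1.48 ± 0.16, and the helicase subunit MCM5 rose by 1.06 ± 0.16 and then fell by 0.96 ± 0.16. The greatest falls were those of RFC4, a clamp loader subunit (-3.62 ± 0.21), the primase PRIM1 (-2.95 ± 0.21) and the polymerase subunit POLA2 (at least 4.29-fold). RFC4 fell at both steps, from 10.63, 10.98 and 10.86 through 9.85, 9.88 and 9.96 to 6.60, 6.44 and 5.79. MCM10 instead rose at both, by 3.10 ± 0.15 and 0.93 ± 0.15. Mitotic genes were above the control at the low dose in 23 of 40 cases with 0 below (median 0.74), and the second step was mixed, with 11 higher and 8 lower (median 0.17, and 20 higher and 6 lower with shifted arrays). MKI67, a proliferation marker, read 8.97, 9.22 and 8.59 in the controls, 10.02, 9.38 and 9.76 at the low dose and 9.48, 9.69 and 9.93 at the high dose, where the doses overlapped (-0.02 ± 0.21, adjusted p = 0.935). The kinase AURKB (-1.65 ± 0.19), the spindle protein DLGAP5 (-1.59 ± 0.23) and the kinesin KIF20A (-1.46 ± 0.18) were lower at the high dose, and the checkpoint kinases BUB1 (1.15 ± 0.19) and TTK (1.25 ± 0.18) higher.

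CDKN1A, the cyclin-dependent kinase inhibitor p21, read higher at each dose, from 9.05, 9.01 and 9.04 in the controls through 9.47, 9.82 and 9.98 to 10.97, 10.83 and 11.47 (1.33 ± 0.20 between the doses, adjusted p = 3.1e-05), and the groups did not overlap. The test of both steps in the same direction, described below, did not call CDKN1A, with 0 rises among the 27 tested p53 targets. Over the list of p53 targets, CDKN1A included, 5 of 27 were higher and 11 lower (median -0.36, and 11 each way with shifted arrays). The difference of MDM2, whose product marks p53 for degradation, missed the threshold (-0.50 ± 0.33, adjusted p = 0.205). TP53I3, a quinone oxidoreductase, fell at least 7.26-fold, the lesion-bypass polymerase POLH by 2.24 ± 0.18 and cyclin G1 (CCNG1) by 2.01 ± 0.13. Among the G1 cyclins, E2F factors and inhibitors 8 of 26 were higher and 8 lower (median 0.16, and 13 higher and 2 lower with shifted arrays), with cyclin D1 (CCND1) up by 1.32 ± 0.33 and E2F7 down by 1.23 ± 0.47. E2F7 lost its call without any 1 of the 6 arrays (adjusted p between 0.0526 and 0.105). Where 36.7% of all tested genes were lower and 21.7% higher, recombination and Fanconi genes were lower in 10 of 25 cases and higher in 4. Their median was -0.36, and shifted arrays gave 6 each way. FANCG (-2.02 ± 0.32), the checkpoint kinase CHEK1 (-1.51 ± 0.26) and RAD54L (-1.19 ± 0.39; adjusted p = 0.104 without high dose replicate 2 and 0.0640 without low dose replicate 3) led them. Of 17 nucleotide excision repair genes 7 were lower and 5 higher (median -0.08, and 0.27 with shifted arrays). XPA, which verifies the damage, fell at least 18.2-fold, from 8.26, 8.17 and 8.12 at the low dose to 3.80, 3.33 and 2.65 at the high dose, ERCC1 by 2.15 ± 0.34 and the helicase ERCC2 by 1.69 ± 0.18. In the BCL2 family, regulators of apoptosis, 6 of 12 were lower and 2 higher (median -0.46), and the lower members included the survival genes BCL2L2 (at least 6.37-fold) and BCL2 (-1.62 ± 0.24) as well as the pro-death gene BOK (-2.81 ± 0.24).

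In energy metabolism, subunits of oxidative phosphorylation were lower in 22 of 44 cases and higher in 7 (median -0.39; 15 higher and 11 lower with shifted arrays, median -0.05). NDUFB10 of complex I stood out of the list, at 10.49, 10.70 and 10.49 in the controls, 9.65, 9.63 and 9.57 at the low dose and 5.67, 6.32 and 5.51 at the high dose (-3.78 ± 0.23 between the doses). ATP5F1D of the ATP synthase (-1.57 ± 0.22) and UQCRC1 of complex III (-1.45 ± 0.25) followed. Glycolysis and hypoxia genes had 7 of 25 higher and 10 lower (median -0.04, and 0.30 with shifted arrays). ADM, the vasodilator peptide adrenomedullin, rose by 2.74 ± 0.24, and the phosphofructokinases PFKM (-1.79 ± 0.24) and PFKL (-1.43 ± 0.22) fell. TXNIP, a thioredoxin-binding protein induced by glucose, read 5.36, 3.93 and 4.40 at the low dose and 8.38, 9.06 and 6.88 at the high dose (3.54 ± 0.44, adjusted p = 5.9e-06), while its relative ARRDC1 fell by 3.15 ± 0.32 and ARRDC4 rose at least 2.36-fold. These 3 were the called members of 5 tested. Genes of cholesterol synthesis and its regulation were above the control at the low dose in 8 of 19 cases with 0 below (median 0.60). Between the doses 6 were lower and 2 higher (median -0.25, and 0.09 with shifted arrays), 42.1% called against 58.4% of all tested genes. TM7SF2, a sterol reductase (-3.87 ± 0.52, -3.03 with values under 4 set to 4), PMVK (-2.05 ± 0.20) and ACAT2 (-1.80 ± 0.23) fell most. Autophagy and lysosome genes had 5 of 24 higher and 6 lower (median 0.10; 13 higher and 4 lower with shifted arrays, median 0.45), including the conjugation protein ATG12 (1.43 ± 0.16), its activating enzyme ATG7 (-1.26 ± 0.29) and the sialidase NEU1 (-1.66 ± 0.17).

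Among signalling genes, immediate early and AP-1 genes had 9 of 21 higher and 6 lower (median 0.26). EGR1, a growth-induced zinc finger factor, read 10.45, 10.59 and 10.32 in the controls, 11.002, 11.44 and 11.69 at the low dose and 8.60, 8.18 and 7.90 at the high dose (-3.16 ± 0.23 between the doses, adjusted p = 3.4e-08). Its low dose arrays read highest, but 0 of the 21 list genes were called with a peak at the low dose. JUND fell by 2.44 ± 0.33 and MYC by 0.94 ± 0.17, while SRF, the serum response factor, rose by 1.54 ± 0.19. Cytokine and NF-kB genes had 4 of 18 higher and 6 lower (median -0.16, and 0.18 with shifted arrays); against the rise of IL6 stood falls of the monocyte attractant CCL2 (-3.82 ± 0.48) and the adhesion molecule VCAM1 (-3.11 ± 0.29). In the EGF family, 2 of 10 were higher and 4 lower (median -0.01, and 0.33 with shifted arrays). The ligand HBEGF rose from 6.13, 5.98 and 6.98 to 8.89, 8.31 and 9.16, the ligand NRG1 fell at least 12.7-fold, from 7.53, 7.64 and 7.84 to 3.12, 2.77 and 3.31, and the receptor ERBB2 fell by 1.11 ± 0.33 (adjusted p = 0.0636 with quantile normalization and 0.0815 with shifted arrays). Interferon-stimulated genes were lower in 12 of 21 cases and higher in 2 (median -0.80, and -0.46 with shifted arrays). IFI44L read 9.03, 8.28 and 9.08 at the low dose and 6.37, 5.49 and 6.01 at the high dose (-2.84 ± 0.26, adjusted p = 3.1e-07), the RNA sensor RIGI fell by 2.72 ± 0.51 and the interferon signalling factor IRF9 by 2.32 ± 0.30. Of their promoters 18 were found and 13 held the core of the interferon response element (GAAANNGAA, either strand), against 5.32% of 9133. RIGI and IRF9 held no match, whereas OAS3, HERC5 and IFI6, which did not fall, held the core. Whether the core goes with the falls was not tested. The stretch before IFI44L (chr1:78620198-78620447, plus strand), the gene of this list with the greatest fall, holds the core in 2 places, in capitals.
IFI44L: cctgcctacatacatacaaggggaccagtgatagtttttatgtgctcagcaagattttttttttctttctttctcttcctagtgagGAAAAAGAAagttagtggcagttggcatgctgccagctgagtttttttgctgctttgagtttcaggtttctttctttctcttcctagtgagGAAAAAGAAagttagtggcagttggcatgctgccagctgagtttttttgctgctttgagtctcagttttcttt

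Tight and adherens junction genes were lower in 9 of 17 cases and higher in 3 (median -1.10), where 36.7% of all tested genes were lower and 21.7% higher, with the pore-forming claudin CLDN2 at 9.43, 9.22 and 8.84 in the controls, 10.44, 10.34 and 10.42 at the low dose and 6.53, 6.42 and 7.81 at the high dose. E-cadherin (CDH1) fell at both steps, by 1.10 ± 0.28 and 2.17 ± 0.28, and CLDN16 fell by 2.50 ± 0.51 between the doses. TGF-beta, matrix and mesenchymal genes were mixed, with 8 of 26 higher and 9 lower (median -0.23, and 0.12 with shifted arrays). ZEB2, a repressor of epithelial genes, rose from 4.18, 4.20 and 4.06 to 6.82, 6.88 and 7.36, the smooth muscle gene TAGLN rose at least 3.04-fold and LOX, a collagen cross-linking oxidase, fell by 2.11 ± 0.33. The tubule markers on the list of the proximal tubule numbered 30, 26 of them with a probe set, of which 18 lay at or under 4 on all 9 arrays, including the organic anion transporters SLC22A6 and SLC22A8. Of the 7 tested, 6 were lower at the high dose and 0 higher (median -1.93, and -1.58 with shifted arrays). SLC3A1, a subunit of the cystine transporter, read 10.50, 10.31 and 10.29 at the low dose and 6.25, 6.39 and 6.09 at the high dose (-4.13 ± 0.23, adjusted p = 2.7e-09). The kidney cadherin CDH16 (-3.61 ± 0.23), the bicarbonate transporter SLC4A4 (-3.39 ± 0.20) and the kidney transcription factor PAX8 (-1.93 ± 0.35) fell as well, and the endocytic adaptor DAB2 did not pass (1.10 ± 0.50, adjusted p = 0.07) but was called higher with quantile normalization and with shifted arrays. Drug and organic anion transporters were higher in 7 of 11 cases and lower in 3 (median 0.42). SLC22A4, a carrier of ergothioneine and organic cations, rose by 3.001 ± 0.26, SLCO4C1, an organic anion transporter of the basolateral side, fell by 2.62 ± 0.27, and the efflux pump ABCB1 fell by 0.96 ± 0.27.

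Kidney injury genes had 9 of 17 lower and 3 higher (median -0.76, and -0.41 with shifted arrays), and 3 of them were called with a peak at the low dose. KRT20, a keratin induced in injured tubules, read 8.04, 7.32 and 9.16 in the controls, 10.46, 10.09 and 11.38 at the low dose and 4.80, 4.50 and 6.22 at the high dose, a step of 2.47 ± 0.53 up (adjusted p = 0.0048) and of -5.47 ± 0.53 down (adjusted p = 5.5e-07). HAVCR1, the injury marker KIM-1, had the same shape, at 10.22, 9.73 and 9.82, then 11.54, 11.52 and 11.59, then 9.44, 8.45 and 10.49, with steps of 1.63 ± 0.35 and -2.09 ± 0.35. The control and high dose arrays of HAVCR1 overlapped, and neither overlapped the low dose. PROM1, the stem cell marker CD133, rose by 3.07 ± 0.40 and fell by 2.08 ± 0.40. CD24 (-2.93 ± 0.17) and VCAM1 fell between the doses (-3.11 ± 0.29 in VCAM1), their low minus control differences not passing (-0.03 ± 0.17 and -0.34 ± 0.29), and CD44, a hyaluronan receptor, rose at both steps (1.22 ± 0.19 and 2.04 ± 0.19). Markers of other cells were read beside these. Of 7 leukocyte markers with a probe set 6 lay at or under 4 on all 9 arrays, among them PTPRC, CD3E and CD14, but FCER1G rose at least 6.83-fold, and the summed level of the list (log2 of the sum of the unlogged values) was 6.88 to 7.46 at the high dose, 5.26 to 5.42 at the low dose and 5.22 to 5.36 in the controls. Of 8 endothelial markers 7 were at or under 4 throughout and ESAM fell (-1.84 ± 0.25; list sums 6.10 to 6.41, 6.89 to 7.76 and 7.30 to 7.56 in that order). Of 8 fibroblast markers 4 were tested (median -0.30, and 0.05 with shifted arrays) and S100A4 fell (-0.93 ± 0.24), a call lost with shifted arrays (adjusted p = 0.0807; sums 10.6 to 11.1, 11.1 to 11.5 and 9.91 to 10.2). In the distal nephron list 4 of 13 were tested, CLDN16 and SCNN1A (-2.12 ± 0.14) lower and AQP3 (1.77 ± 0.25) higher (sums 9.70 to 9.94, 10.8 to 11.02 and 10.8 to 11.3). Another SCNN1A probe set was called the other way, and SLC12A1, also called, lay near background, at 4.12 or less on all 9 arrays. No podocyte marker was called (0 of 3 at adjusted p under 0.05; limma, with 0 at unadjusted p under 0.05; sums 12.1 to 12.3, 11.5 to 12.6 and 11.2 to 12.03). The part of these markers in the results was not tested.

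**Figure D2:**
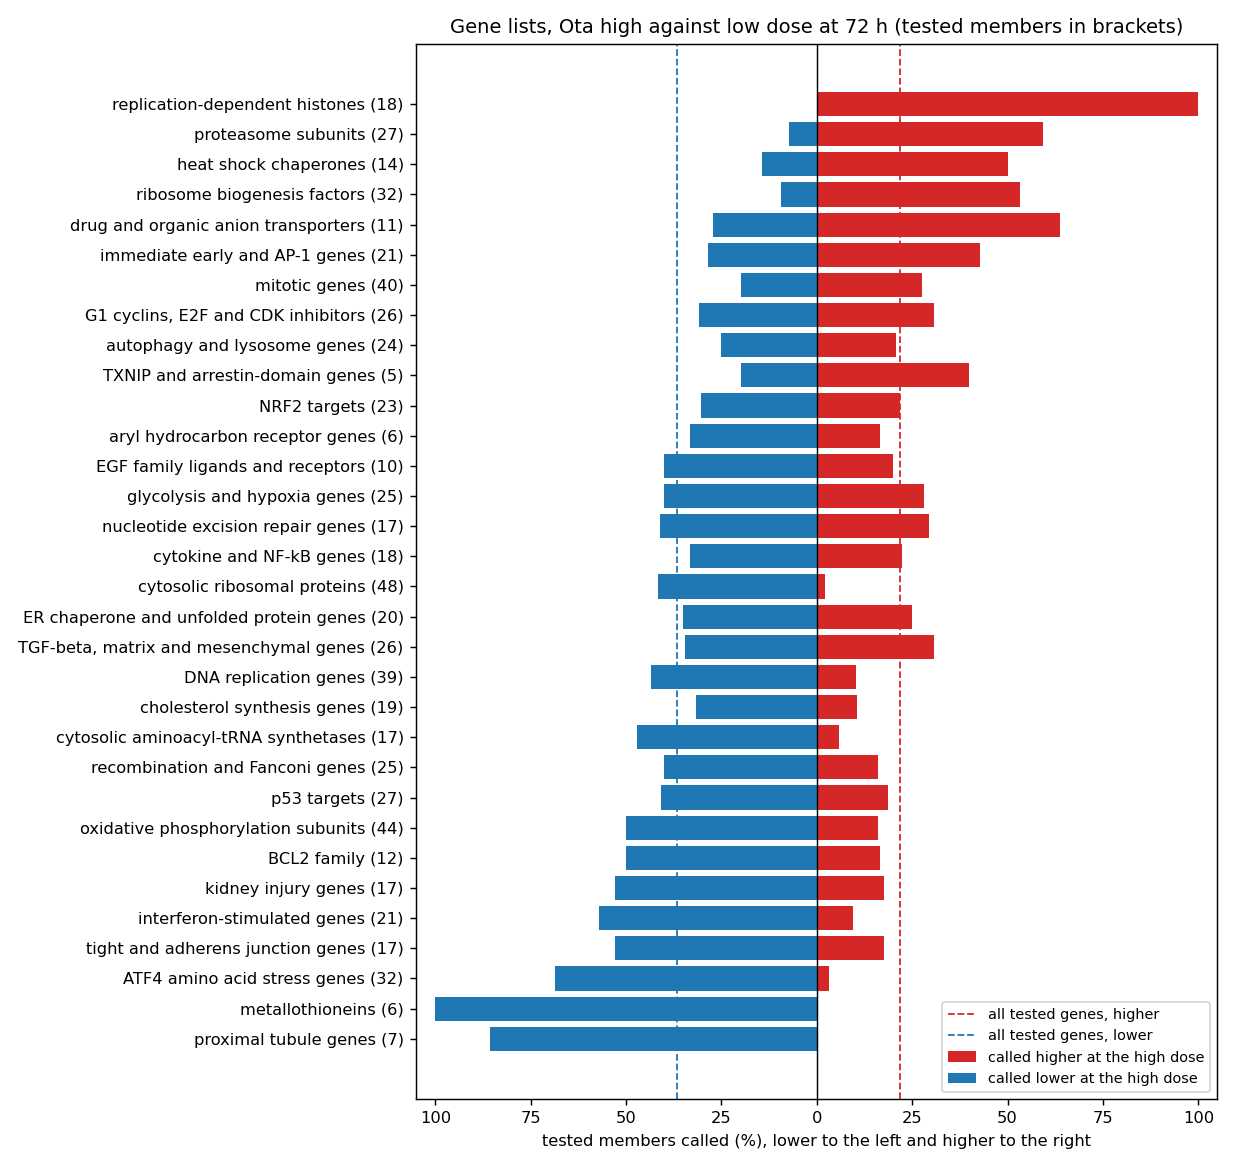
Share of the tested members of each gene list (x axis, %) called higher (red, to the right) or lower (blue, to the left) at the high dose, compared with the low dose, of Ota at 72 h, ordered by list median, lists with 5 or more tested members. Dashed lines give the shares over all tested genes, 21.7% higher and 36.7% lower; histones lie wholly on the higher side and metallothioneins wholly on the lower side.

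The 3 groups of 72 h also showed which genes moved in the same direction at each step and which turned. In 451 genes (4.09% of those tested) the low dose lay between control and high dose with both steps significant, 195 rising and 256 falling (limma, the larger of the 2 step p-values, Benjamini-Hochberg); shifted arrays gave 303 and 174. Among the rises with the greatest second step were PLAUR, H2BC4, H2BC6, H2BC9, H2BC12L and NUDT4, a diphosphoinositol phosphatase that read 3.66, 4.07 and 4.04, then 5.66, 5.48 and 5.82, then 8.71, 8.66 and 8.12. Those with the greatest second step among the falls were METTL23, CBS, RFC4, NDUFB10, the retinal and ciliary gene SPATA7 (-1.21 ± 0.24, then -4.33 ± 0.24) and the mitochondrial CHCHD5 (-0.83 ± 0.21, then -3.95 ± 0.21). In 136 genes (1.23%) the low dose lay beyond both other groups, 114 with a peak and 22 with a dip (63 and 34 with shifted arrays). Besides KRT20 and PROM1 the peaks with the greatest size were XKR4, FXYD2, ESRRG and OPN3. ESRRG, a nuclear receptor of oxidative metabolism, read 3.62, 3.53 and 3.21 in the controls, 5.91, 5.91 and 6.22 at the low dose and 2.92, 2.96 and 2.94 at the high dose, and the low dose was at least 4.03-fold above the high dose. FXYD2, the regulatory gamma subunit of the sodium pump in kidney, rose by 2.27 ± 0.45 and fell by 2.58 ± 0.45, XKR4 rose by 2.81 ± 0.43 and fell by 3.39 ± 0.43, and the opsin OPN3 rose by 1.86 ± 0.22 and fell by 1.88 ± 0.22. POLG2, the accessory subunit of the mitochondrial DNA polymerase, dipped, at 7.04, 7.29 and 7.02 in the controls, 5.69, 5.92 and 5.54 at the low dose and 8.87, 8.69 and 8.53 at the high dose. Further dips of the greatest size were PDGFRL, at or under 4 on all low dose arrays, the signal peptidase subunit SEC11C (-1.30 ± 0.18, then 1.14 ± 0.18), ZFAND2A, an arsenite-induced proteasome partner (-1.08 ± 0.21, then 1.67 ± 0.21), the prolyl hydroxylase P4HA2 (-0.92 ± 0.12, then 1.43 ± 0.12) and ERP44. Both steps share the low dose arrays, so a low dose array that stands apart enters both. Without low dose replicate 1, 2 or 3 the between count was 232, 262 and 225 and the beyond count 36, 86 and 61, and without high dose replicate 1 the beyond count was 88.

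**Figure D3:**
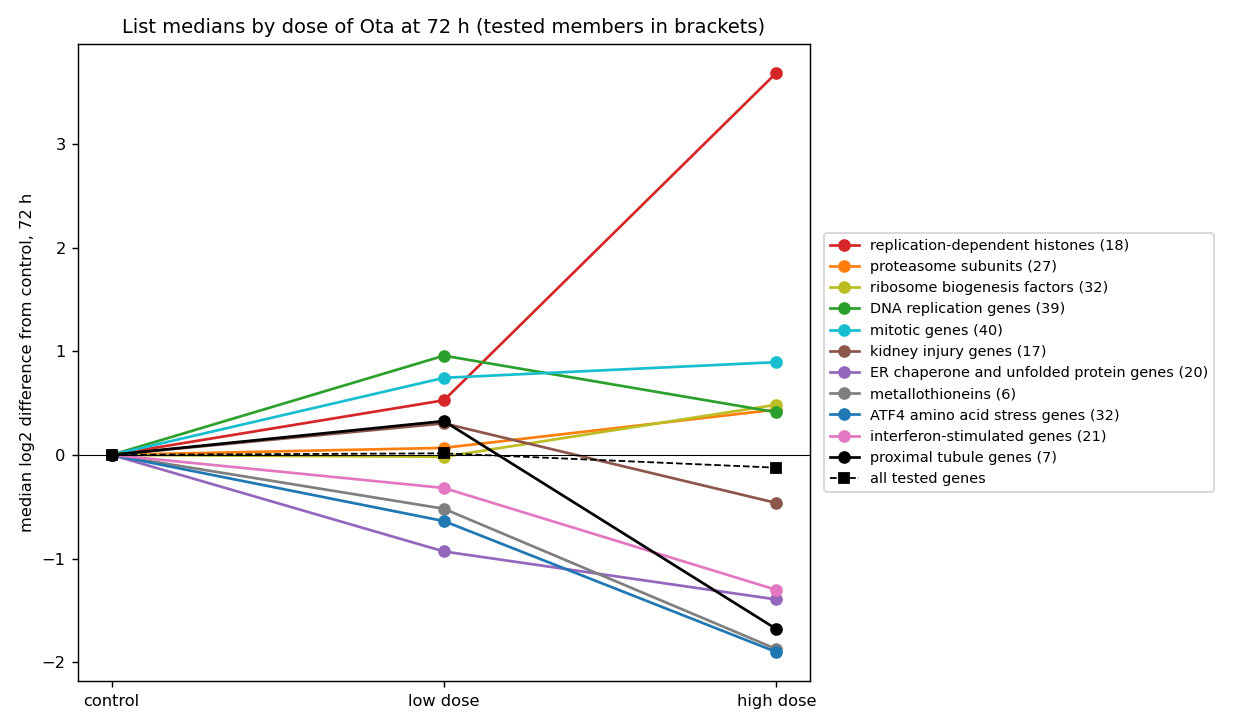
Median log2 difference from the 72 h control (y axis) at control, low and high dose of Ota (x axis) for 11 gene lists and for all tested genes (dashed). Each point is a median over the tested members, given in brackets, and the 2 dose points share the control arrays; DNA replication genes stand at 0.96 at the low dose and 0.41 at the high dose, and with values under 4 set to 4 the low dose point of the histones is 0.01 instead of 0.53.

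The same dose comparison at 24 h, on other arrays, called 6413 genes (58.1%), 2144 higher and 4269 lower (3097 and 3595 with quantile normalization, 4743 and 2716 with shifted arrays). The dose difference itself changed with time in 5350 genes (48.5%; limma, interaction), becoming more positive in 3082 and more negative in 2268. The array medians of the 24 h doses were further apart (7.64 ± 0.16 high, 8.15 ± 0.04 low), and with shifted arrays the split was 2592 more positive and 2663 more negative. The dose difference of RNASEH2A, GPR160 and WDR13 did not pass at 24 h (-0.12 ± 0.39, 0.05 ± 0.33 and 0.27 ± 0.31; adjusted p = 0.809, 0.918 and 0.466), and GCAT was then slightly higher at the high dose (0.55 ± 0.22, adjusted p = 0.042). UCP2, a mitochondrial inner membrane carrier, turned from 1.79 ± 0.27 at 24 h to -4.29 ± 0.27 at 72 h, and BCKDK, the kinase that restrains branched-chain amino acid breakdown, from 0.93 ± 0.22 to at least 14.8-fold lower. Other genes were far lower at the high dose at 24 h, with a 72 h difference that did not pass: NUP85, of the nuclear pore (-5.08 ± 0.56, then -0.12 ± 0.56), CARD10 (-6.17 ± 0.51, then -0.86 ± 0.51), LSM6, of an RNA-binding ring (-4.47 ± 0.37, then -0.27 ± 0.37), and TMEM70, an assembly factor of ATP synthase (-4.40 ± 0.66, then -0.30 ± 0.66). Their adjusted p at 72 h lay between 0.165 and 0.864. POLQ, the polymerase of end joining, and ZNF326 were lower at the high dose at 24 h and higher at 72 h (-3.57 with values under 4 set to 4, then 0.90 ± 0.24, and -3.01 ± 0.29, then 1.21 ± 0.29). Ribosome biogenesis factors were lower in 15 of 32 and higher in 3 at 24 h (median -0.42), and 22 became more positive by 72 h while 2 became more negative. Mitotic genes (22 of 40 more positive, 1 more negative) and proteasome subunits (17 of 27 and 3) changed in the same direction with time. Metallothioneins (0 of 6 more positive, 6 more negative), interferon-stimulated genes (0 of 21 and 12), oxidative phosphorylation subunits (4 of 44 and 18) and ATF4 targets (2 of 32 and 17) became more negative. Over all tested genes 27.9% became more positive and 20.6% more negative.

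**Figure D4:**
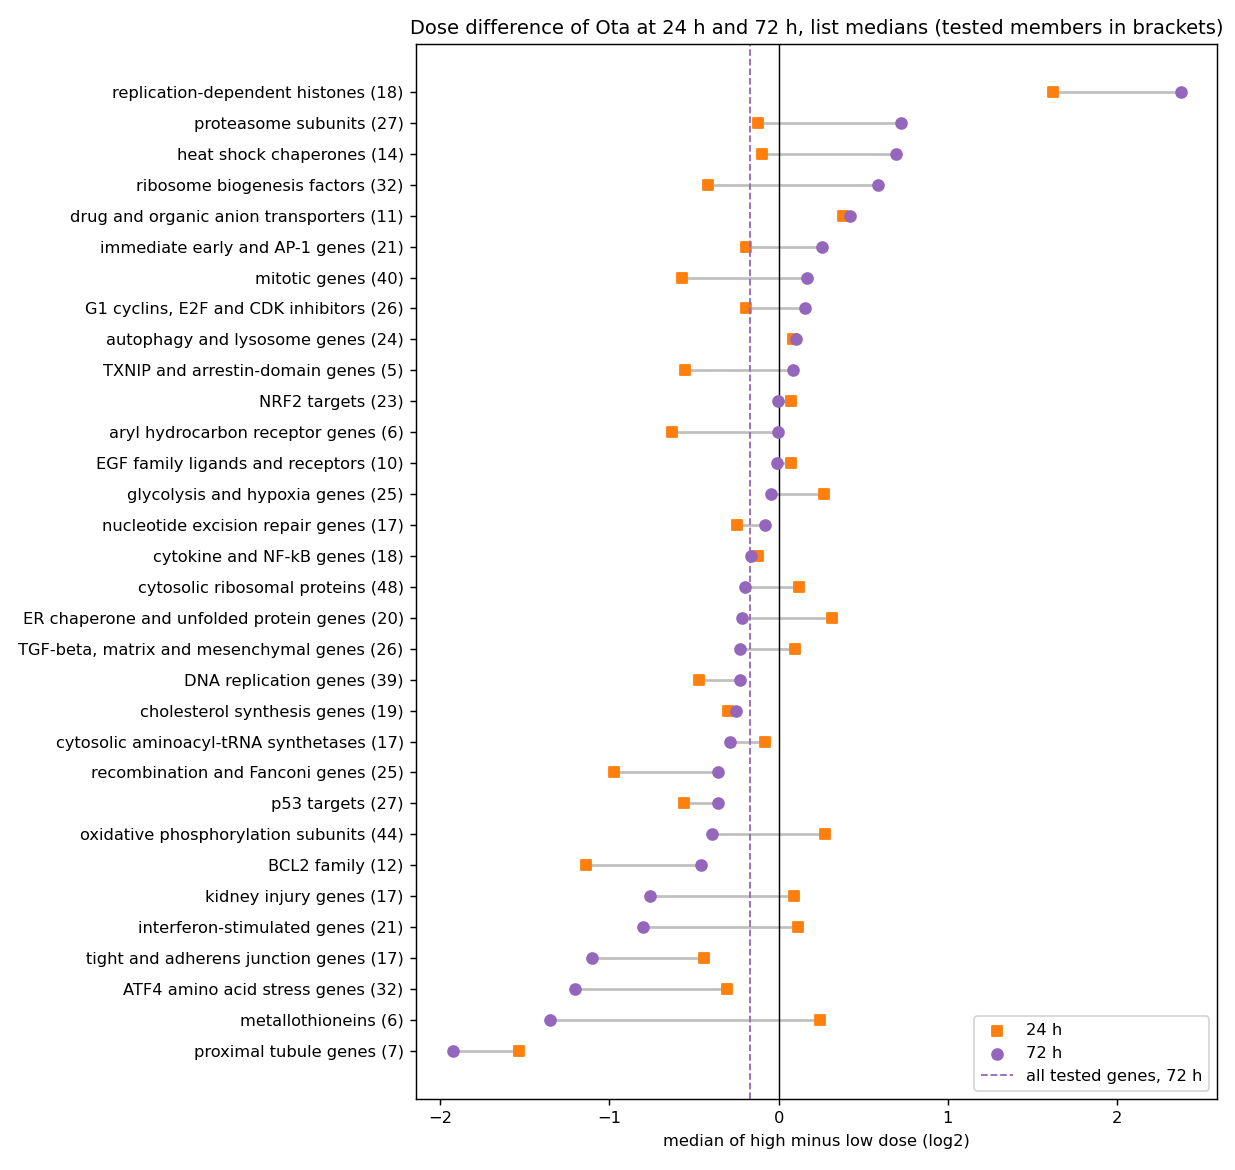
Median high minus low dose difference (x axis, log2) of each gene list at 24 h (orange squares) and at 72 h (purple circles), lists with 5 or more tested members, ordered by the 72 h value; grey lines join the times and the dashed line is the median of all tested genes at 72 h (-0.17). The histones lie to the right at both times, 1.62 at 24 h and 2.38 at 72 h, and the metallothioneins move from 0.24 to -1.35.

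The dose difference at 72 h also varied with the length of the gene in the genome (RefSeq, GRCh38.p14, known for 99.9% of the tested genes), given here as a description. In 10 equal groups ordered by gene span, 47.8% of the shortest genes (median span 3062 bases) were lower at the high dose and 15.4% higher, and of the longest (median 241620 bases) 43.8% were lower and 15.5% higher. In the eighth group, with a median of 74919 bases, 28.4% were lower and 26.7% higher. The median differences were -0.45, -0.41 and 0.01 in the same order, and -0.10, -0.06 and 0.35 with shifted arrays. At 24 h the shortest genes had a median of 0.00 and the longest one of -0.24. Between control and low dose the medians ran from -0.08 in the shortest to 0.11 in the longest genes.

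**Figure D5:**
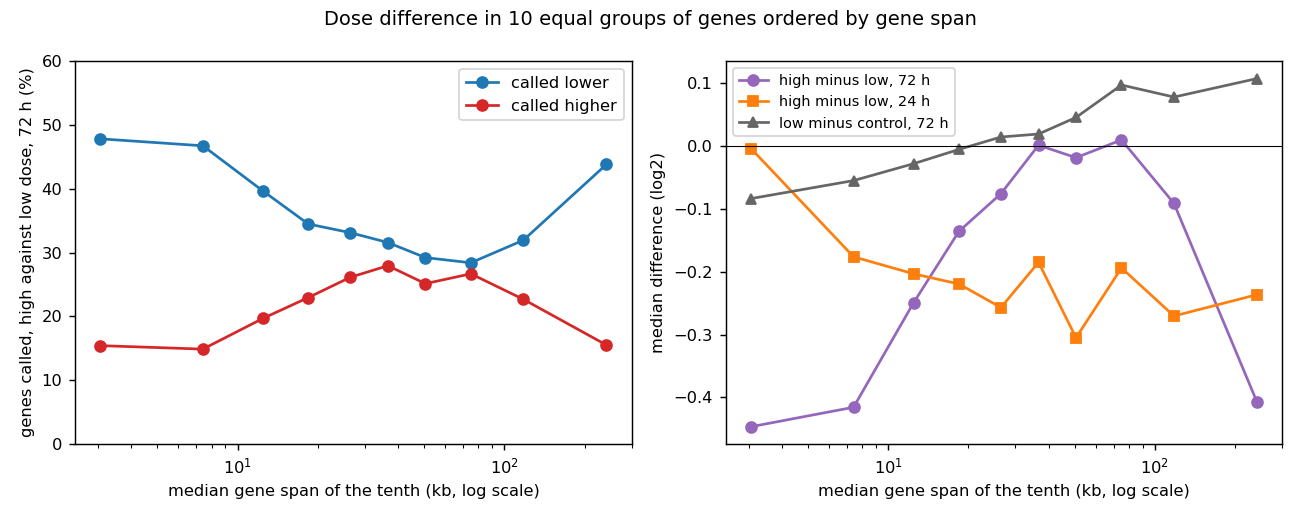
Left, share of genes called lower (blue) or higher (red) at the high dose relative to the low dose at 72 h (y axis, %) in 10 equal groups of genes by gene span (x axis, kb, log scale); right, the median log2 difference of the same groups at 72 h, at 24 h and between control and low dose. The called lower share is 47.8% in the shortest and 43.8% in the longest genes and 28.4% in the eighth group.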

How the data were processed

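The deposited values are log2 expression per probe set of Affymetrix arrays, which the authors computed by GCRMA, a background correction with quantile scaling, per the submitters' processing notes. Its version, and which arrays entered 1 normalization, is not given in the sources used here. The number of arrays limits the precision.

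The comparison, its gene lists and named genes were chosen with earlier results of these data known. Groups came from the labels. Each gene kept 1 probe set; genes with log2 above 4 on at least 3 of the 18 Ota arrays were tested (11029 genes, 20575 probe sets). One limma model (limma 3.58.1, R 4.3.3; lmFit and eBayes, 12 residual degrees of freedom) over the 18 Ota arrays gave all contrasts, with Benjamini-Hochberg adjustment over all tested genes, a threshold of 0.05 and two-sided tests. P-values set each difference against 1 spread per gene, taken within groups over all 18 Ota arrays and moderated by eBayes. They do not use the spread of the compared groups alone. Tables and figures used Python 3.11.15, pandas 2.3.3, numpy 2.4.6 and matplotlib 3.10.9. The script was tested on simulated data.

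Where all 3 arrays of the dimmer group lay at or under 4, the fold is a lower bound against 4, and a difference with values under 4 set to 4 is given for others. Named genes were the 15 largest rises and falls without overlap, the 3 most changed called members of each of 37 lists, 12 index genes (GDF15 was not analysed here) and the 6 largest each way for the change with time and for the shape of the dose response. Alternatives were other scalings, filters, array sets, probe sets and variance models, a replicate block and leaving out each array.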

Additional observations from a re-analysis of the deposited data

Results flagged for a closer look

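The difference between high and low dose itself differed between 72 h and 24 h in 5350 genes by the interaction term of the limma model (adjusted p under 0.05). Named genes whose dose difference became more negative with time were UCP2 (-6.08 on the log2 scale, 72 h minus 24 h), GPR160 (-5.91), GCAT (-5.87), BCKDK (-5.86), RNASEH2A (-5.77) and WDR13 (-5.19). Those that became more positive were POLQ (5.39), CARD10 (5.32), NUP85 (4.96), ZNF326 (4.22), LSM6 (4.20) and TMEM70 (4.10). All 12 were chosen for the size of this difference. With values under 4 set to 4 the change was -4.82 in BCKDK, 4.47 in POLQ and 4.52 in CARD10. Groups of 3 arrays are too small for a test of single outlying arrays.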

How the results depend on the processing

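Over 183 gene-level results and 19 other settings, 3376 of 3436 values kept direction and side of the threshold, 40 lost their call, 9 gained it and 11 changed sign. With all probe sets, only the chosen probe set of each gene was compared. Other filters, variance models, array sets that kept every compared array and the replicate block left the group differences unchanged, so no sign could change there. Most of these genes were chosen for large differences, so the tally does not stand for all tested genes. The sign changes were all in differences that did not pass: MKI67 (0.32 with shifted arrays, 0.09 without high dose replicate 1, 0.13 without low dose replicate 1, and -0.19 to 0.13 over all arrays left out), NUP85 (0.22 with shifted arrays, 0.080 without high dose replicate 2, and -0.28 to 0.080 over all arrays left out), LSM6 (0.078) and TMEM70 (0.048), the last both with shifted arrays, and the shifted values also held with values under 4 set to 4, a setting chosen after seeing the data. Testing all 20575 probe sets gave 11221 calls for high against low dose, 3496 for low dose against control, 12469 for high dose against control, 11264 at 24 h, 8843 for the change with time, 840 between and 212 beyond, since more features were tested. Fitting only the 6 arrays of a comparison gave 3479 calls for low dose against control, and all 36 arrays gave 677 between and 231 beyond; the cause was not tested. Leaving out each array gave 5743 to 6115 calls for high against low dose, 6476 to 6899 for high dose against control, 1184 to 2045 for low dose against control (1184 without low dose replicate 1), 6291 to 6514 at 24 h, 4809 to 5364 for the change with time, 225 to 431 between and 36 to 139 beyond. Without any 1 array in turn, 1341 of the 6437 calls were lost at least once. The replicate block gave 6598 calls for high against low dose, and with the 9 arrays of 72 h, chosen after seeing the data, 83 beyond. Deviations of same-numbered arrays correlated at -0.057 to 0.227 over 9 pairs and those of different numbers at -0.215 to 0.126 over 18, so the numbers were not taken as pairs. Without a filter on low values 7095 genes were called, 3200 higher and 3895 lower. Beyond counts were 97 with shifted arrays (63 peaks, 34 dips) and 128 with quantile normalization (94 and 34).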

Other observations

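Among 133 groups of at least 10 tested genes whose symbols share the letters before the first digit, looked at after the values were known, some moved mostly in 1 direction between low and high dose at 72 h. Of 11 COQ genes, which make coenzyme Q, the electron carrier of mitochondria, 8 were lower and 1 higher (median -1.43, and -1.08 with shifted arrays), with COQ4 at -1.998 ± 0.16 and, as the exception, COQ10B at 1.18 ± 0.28. Of 17 IFT genes, which carry cargo along cilia, 12 were lower and 2 higher (median -0.98, and -0.64 with shifted arrays), with IFT22 at -2.82 ± 0.23 and IFT57 at 0.57 ± 0.13. Of 10 EXOSC genes, subunits of the RNA exosome, 7 were lower and 1 higher (median -1.21, and -0.86 with shifted arrays), with EXOSC6 at -2.16 ± 0.46 and EXOSC9 at 0.42 ± 0.12. Of 10 COMMD genes, of an endosomal sorting complex, 7 were lower and 0 higher (median -1.01, and -0.67 with shifted arrays), with COMMD10 at -2.005 ± 0.26 and COMMD4 at -1.64 ± 0.17. On the other side stood UTP genes, of the small ribosomal subunit processome, with 8 of 10 higher and 0 lower (median 0.87), among them UTP25 (2.04 ± 0.24). Over all tested genes 21.7% were higher and 36.7% lower. These groups were chosen for their shares, so the counts describe them and test nothing.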
